A study of Rattus norvegicus with 12 samples.

Results

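The carbonic anhydrases form a family of enzymes that interconvert carbon dioxide and bicarbonate. Probes for 9 of these genes, Car2, Car3, Car4, Car5b, Car8, Car9, Car11, Car12 and Car14, were followed through kidneys of young, aged and calorie-restricted rats. They were found by gene symbol in the platform annotation of the arrays, and each had exactly 1 probe, out of 12727 genes that the arrays name by a single symbol. Of the 7 other members of the family that were looked for, Car1, Car5a and Car6 had 1 probe each, and Car7, Car10, Car13 and Car15 had no probe by name. The source sequence of the probe was a reference mRNA for Car2, Car3, Car4 and Car11 and an expressed sequence tag for Car5b, Car8, Car9, Car12 and Car14.

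The samples were whole kidneys of male Fischer 344 rats, an inbred strain common in ageing research, with 1 single-colour CodeLink oligonucleotide array for each sample. The young group was 4 months old and the aged ad libitum group 24 months old, both fed freely. The aged restricted group was also 24 months old, and its food had been cut by 10% from 10 weeks of age, by 25% from 15 weeks and by 40% from 4 months. Each group had 4 arrays, and no other treatment is given in the labels, so all rats shared strain, sex and the anaesthesia (ketamine with xylazine) under which the kidneys were removed. In whole kidney, fewer cells of a type cannot be told apart from less RNA per cell.

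Reclaiming filtered bicarbonate and secreting acid both rest on carbonic anhydrases. In the proximal tubule the enzyme outside the cell, bound to the membrane, turns carbonic acid in the lumen into carbon dioxide and water, and the enzyme inside the cell forms bicarbonate again, which leaves across the basolateral membrane. In the collecting duct the cytosolic enzyme feeds protons to the pumps of the intercalated cells. Some family members, the carbonic anhydrase-related proteins, have lost residues of the active site and are not active as enzymes.

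The share of gene probes above background ranged from 64.2% to 69.9% in young, from 71.5% to 73.7% in ad libitum and from 72.5% to 74.8% in restricted kidneys. Although the labels call the arrays of a group biological replicates, several agreed within the noise of repeat spots on a single array, a limit set after these differences were seen. Such arrays were counted as 1 sample: the 4 ad libitum arrays, restricted 1 with 3 and 2 with 4, and young 1 with 2 and 3 with 4, which leaves 5 samples. The SDs of the log2 differences over 6121 bright probes were 0.085 to 0.120 between joined ad libitum arrays, but 0.303 to 0.335 between the 2 young samples. The joining was less clear in restricted kidneys, with 0.126 and 0.134 between joined arrays and 0.156 to 0.208 between the others. The limit was set by group, at 0.145 in restricted, 0.121 in ad libitum and 0.120 in young kidneys. Under the limit of either other group no restricted arrays would have been joined. Two-sided adjusted p-values (Benjamini-Hochberg over all probes tested) are given from limma over the 12 arrays, where they measure only the spread between arrays, and over the 5 samples, and standard errors (SE) come from the 5 samples. The fit over samples has a single ad libitum sample and takes its spread from the other groups. Slide series and scan are inferred from the image file names given in the array headers. By these names all ad libitum arrays were scanned apart from the rest, so the scan and the ad libitum group cannot be told apart. The first slide series so inferred held all ad libitum arrays with restricted arrays 3 and 4. The second held all young arrays with restricted arrays 1 and 2. The series and the change from young to ad libitum kidneys can thus be separated only through the restricted arrays.

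Levels are quantile-normalised intensities on a linear scale, given array by array in the order of the replicate numbers, which has no meaning of its own. Levels of different probes are not comparable, so only their changes are set side by side.

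**Figure D1:**
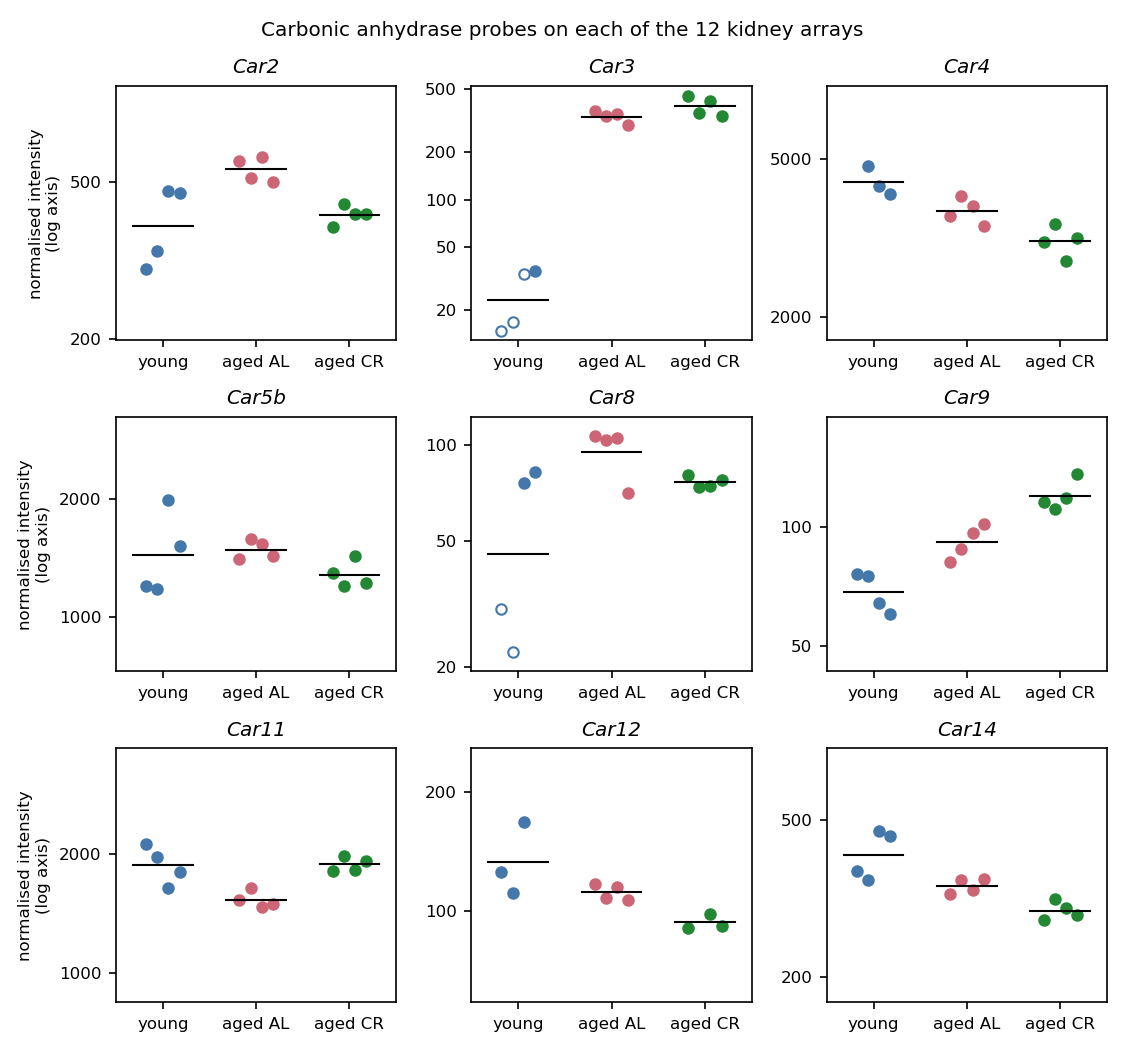
Normalised intensity (log axis) of the probe of each of the 9 genes on every array, by group; each point is 1 array, an open point was not above background, a black line is the mean of the log2 values, and AL and CR stand for ad libitum and restricted. Car3 lies between 14.8 and 35.3 in young kidneys and between 298 and 455 in aged ones, Car9 steps up from young to ad libitum to restricted with no overlap, and Car4, Car12 and Car14 are lowest in the restricted group.

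In the comparison of aged ad libitum with young kidneys, which asks what age changes under free feeding, 4 of the 9 genes were higher (Car2, Car3, Car8 and Car9) and 2 were lower (Car11 and Car14) over the 12 arrays. That is 6 of 9 called, where 48.1% of all 25398 probes tested were called, 20.9% as higher and 27.1% as lower. The median log2 change of the 9 genes was 0.05, against -0.05 for all probes. Over the 5 samples limma called 0 of the 9 (1 at an unadjusted p under 0.05) and 0.114% of all probes.

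Restricted and ad libitum kidneys of the same age, which differ in diet, gave 2 of 9 calls over the 12 arrays, both higher in restricted kidneys: Car9 and Car11. The background was 13.4% of all probes, 7.39% higher and 5.98% lower. The median log2 change of the 9 genes was -0.21, with 6 negative and 3 positive values, against 0.01 for all probes. With 5 samples limma called 0 of the 9, 0 at an unadjusted p under 0.05, and 0 of all 25389 probes.

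Restricted kidneys against young kidneys, a contrast in which age and diet both differ, gave 5 of 9 calls, with Car3 and Car9 higher and Car4, Car12 and Car14 lower, against 44.3% of all probes (19.7% higher and 24.6% lower). The median log2 change was 0.01, and it was -0.02 over all probes. Limma over the 5 samples called 1 of the 9, Car3, against 0.91% of all probes, and 4 of the 9 at an unadjusted p under 0.05. The comparisons share groups of arrays, so their calls are not independent of one another.

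**Figure D2:**
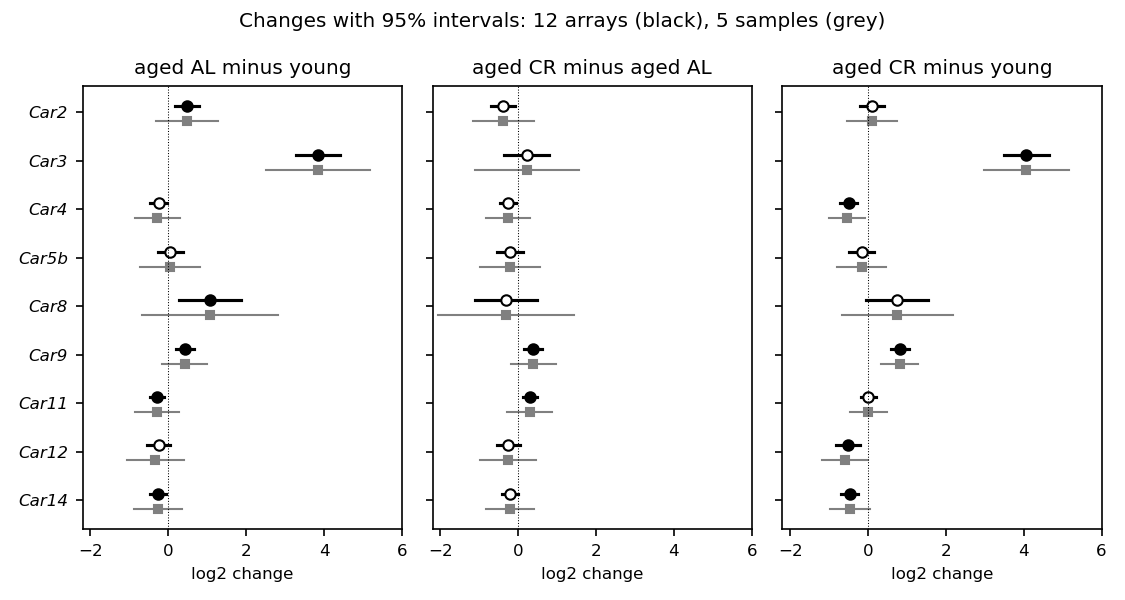
Log2 change of each of the 9 genes in the 3 comparisons (x axis) with 95% confidence intervals; black circles come from limma over 12 arrays, filled where the adjusted p was under 0.05, and grey squares from limma over 5 samples. The changes of Car3 against young kidneys, 3.85 and 4.07, stand apart from those of the other genes, which lie between -0.51 and 1.07 over 12 arrays and between -0.60 and 1.07 over 5 samples.

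Car3 encodes a cytosolic carbonic anhydrase of low activity that is abundant in skeletal muscle, fat and, in male rats, liver. Its intensity in the young kidneys was 14.8, 16.7, 33.9 and 35.3, and only the last was above background. In ad libitum kidneys it was 362, 337, 347 and 298, and in restricted kidneys 455, 355, 423 and 339.6. Every aged array was far above every young array, and the aged groups overlapped. The log2 change from young to ad libitum was 3.85 (SE 0.51, adjusted p = 9.1e-07 by limma over 12 arrays and 0.0782 over 5 samples), a 14.4-fold difference. From young to restricted it was 4.07 (SE 0.42, adjusted p = 7.14e-07 over arrays and 0.0428 over samples), or 16.8-fold.

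Because most young values of Car3 were under background, the size of its difference is better given as a bound. With each young array set to the higher of its own value and the lowest signal of a probe above background there, Car3 was at least 9.34-fold higher in ad libitum and at least 10.9-fold higher in restricted kidneys. Between the diets its log2 change was 0.22 (95% interval from -1.12 to 1.56 over the 5 samples; adjusted p = 0.647 by limma over 12 arrays), so a difference in either direction was not shown. Within the slide series that holds young and restricted arrays its change was 4.11 (limma adjusted p = 0.006).

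In the rat genome annotation (GRCr8), Car2, Car3, Car1 and Car13 follow one another on chromosome 2 with no other protein-coding gene between them. The neighbours of Car3 did not share its change. Car2 differed from young kidneys by 0.48 in ad libitum and 0.09 in restricted kidneys on the log2 scale, and Car1 by -0.19 and -0.13, beside 3.85 and 4.07 for Car3. These differences between genes were not tested.

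Car2 is the main cytosolic carbonic anhydrase of the kidney, found in proximal tubule and intercalated cells. Its intensity was 301, 334, 475 and 469.8 in young, 567, 514, 578 and 502 in ad libitum, and 385, 440.2, 414 and 416 in restricted kidneys. All ad libitum arrays were above all others, while the young arrays lay on both sides of the restricted ones. Car2 was higher in ad libitum than in young kidneys by 0.48 (SE 0.30, limma adjusted p = 0.0164 over 12 arrays and 0.453 over 5 samples). Restricted kidneys were at -0.38 relative to ad libitum kidneys, which did not pass (SE 0.30, limma adjusted p = 0.1 over arrays and 1 over samples). Within the first slide series, which holds 2 of the 4 restricted arrays, it was -0.38 (limma adjusted p = 0.032 over arrays). The ad libitum arrays were, by the image file names, scanned apart there too. Against young kidneys the restricted group was at 0.09 (95% interval from -0.55 to 0.74 over 5 samples), and this value was -0.04 with each array scaled by its median.

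Car5b, the widely expressed mitochondrial carbonic anhydrase, passed in none of the 3 comparisons by limma over 12 arrays. Its intensity was 1202, 1183, 1987 and 1515 in young, 1407, 1582, 1535 and 1428 in ad libitum, and 1294, 1203, 1434 and 1220.0 in restricted kidneys, and all groups overlapped. The widest spread was among the young arrays. Its log2 change was 0.05 from young to ad libitum (95% interval over 5 samples from -0.73 to 0.82), -0.21 between the diets and -0.16 from young to restricted.

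Car4 is anchored to the outer face of the plasma membrane by a lipid and works in the brush border of the proximal tubule. It was 4816, 4292 and 4090.4 on young arrays 2, 3 and 4, with array 1 flagged as masked and left out. In ad libitum kidneys its intensity was 3594, 4045, 3819 and 3385, and in restricted kidneys 3085, 3424, 2774 and 3156. The young arrays were above all aged arrays, and the aged groups overlapped. Car4 was lower in restricted than in young kidneys by 0.50 (log2 change -0.50, limma adjusted p = 0.00228 over 12 arrays), or -0.53 over 5 samples (SE 0.18, adjusted p = 0.178). The steps from young to ad libitum, -0.25, and from ad libitum to restricted, -0.26, did not pass (limma adjusted p = 0.0607 and 0.095 over arrays). With each array scaled by its median the change from young to ad libitum was -0.67 and passed (limma adjusted p = 0.0077), and that from young to restricted was -1.08. Within the second slide series the latter was -0.43 and was not called (limma adjusted p = 0.097).

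Car14 spans the membrane, with its active site outside the cell, and in rodents lies in the proximal tubule and thin limb. Its intensity was 369.9, 352, 469 and 454 in young, 325, 352, 332 and 355 in ad libitum, and 279, 314, 299 and 286 in restricted kidneys. Every restricted array was below every other array. Car14 was lower by 0.47 in restricted than in young kidneys (log2 change -0.47, SE 0.19, limma adjusted p = 0.00258 over arrays and 0.239 over samples). Within the second slide series it was -0.46 and was not called (limma adjusted p = 0.111). From young to ad libitum Car14 was at -0.26 (SE 0.24), just inside the threshold over arrays (limma adjusted p = 0.0451) and outside it over samples (0.582). This call was lost when any 1 ad libitum or restricted array, young array 3 or young array 4 was left out.

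Car12 is another membrane-spanning carbonic anhydrase with an outer active site, and lies mostly on the basolateral side of tubule cells. Its intensity was 125, 111 and 168 on young arrays 1, 2 and 3, 117, 108, 115 and 107 in ad libitum kidneys, and 90.4, 98.5 and 91.8 on restricted arrays 1, 3 and 4. Young array 4 and restricted array 2 carried a contamination flag at this spot and were left out. Restricted arrays were below all others. The log2 change from young to restricted was -0.51 over arrays (limma adjusted p = 0.0151) and -0.60 over samples (SE 0.23, adjusted p = 0.213), and with the flagged values kept it was -0.76 (limma adjusted p = 0.0142 over arrays). Neither the change from young to ad libitum, -0.25, nor that between the diets, -0.26, passed (limma adjusted p = 0.135 and 0.242).

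Car4, Car14 and Car12, the membrane-bound members other than Car9, thus had the same order of group means, young, then ad libitum, then restricted. Their log2 changes from young to restricted were -0.50, -0.47 and -0.51. Neighbouring groups in that order overlapped for Car4 between the diets and for Car12 and Car14 between young and ad libitum kidneys.

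Car9 has the reverse order. It encodes a membrane-spanning carbonic anhydrase with an outer active site, which is scarce in most healthy tissue and is known as a target of hypoxia-inducible factor (HIF) and as a marker of clear cell kidney cancer in humans. Its intensity was 76.1, 75.1, 64.1 and 60.2 in young, 81.8, 88.0, 96.7 and 102 in ad libitum, and 116, 111, 119 and 136 in restricted kidneys, all above background. The 3 groups did not overlap. Car9 was higher in ad libitum than in young kidneys by 0.42 (SE 0.22, limma adjusted p = 0.0071 over arrays and 0.399 over samples).

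Restricted kidneys had more Car9 than ad libitum kidneys by 0.39 (SE 0.22, limma adjusted p = 0.0311 over arrays and 1 over samples). They exceeded young kidneys by 0.81, a 1.75-fold difference (SE 0.18, adjusted p = 0.000119 over arrays and 0.108 over samples). The call between the diets was lost without restricted array 1, 3 or 4 or ad libitum array 1, 2 or 3, and with each array scaled by its median (0.38, limma adjusted p = 0.059). Within the first slide series the difference between the diets was 0.47 (limma adjusted p = 0.038 over arrays). By the image file names the ad libitum arrays were scanned apart there too. Within the second series the difference between restricted and young kidneys was 0.73 (limma adjusted p = 0.025 over arrays). With slide series as a fixed term the change from young to ad libitum was 0.26 and was no longer called (limma adjusted p = 0.353), whereas that from young to restricted was 0.73 (limma adjusted p = 0.002).

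Car9 and Car12 are both described as HIF targets in human cells, and here their changes ran in opposite directions, so their promoters are shown. They are the rat RefSeq promoters of build GRCr8, from 250 bases before to 50 after the annotated start of each gene. Capitals mark only the letters ACGTG, a form of the core of the HIF binding motif, or their reverse complement CACGT. Other forms of the core were not searched for, so the counts of matches hold for these letters alone. The Car9 window is chr5:62558774-62559073 on the plus strand and the Car12 window chr8:76169565-76169864 on the plus strand.
Car9: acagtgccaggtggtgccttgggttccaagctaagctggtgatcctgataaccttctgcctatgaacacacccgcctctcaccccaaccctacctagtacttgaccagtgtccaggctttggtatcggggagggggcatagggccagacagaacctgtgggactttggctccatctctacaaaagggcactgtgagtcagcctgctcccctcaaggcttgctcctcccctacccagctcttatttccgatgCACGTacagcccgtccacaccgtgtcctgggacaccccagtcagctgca
Car12: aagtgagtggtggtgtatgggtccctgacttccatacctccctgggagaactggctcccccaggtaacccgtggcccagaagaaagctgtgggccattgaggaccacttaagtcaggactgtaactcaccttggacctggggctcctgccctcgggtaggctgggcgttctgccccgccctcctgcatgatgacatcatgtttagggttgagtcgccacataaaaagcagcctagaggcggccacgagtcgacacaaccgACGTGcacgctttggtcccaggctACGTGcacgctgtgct
The Car9 promoter has 1 match, on the opposite strand, which begins at base 2 of the annotated transcript. The Car12 promoter has 2 matches on the forward strand, which begin at bases 11 and 35 of the transcript. Car4 and Car14 also had matches (2 and 1) among the 6 members with a promoter in the table, while Car5b and Car11 had none. On either strand, 19.3% of 33469 promoters of that length hold the letters. A match describes the sequence and does not show binding. Promoters of Car2, Car3 and Car8 were not used here.

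Car8 and Car11 encode carbonic anhydrase-related proteins without catalytic activity. Car8 is best known in cerebellar Purkinje cells, where it binds the receptor for inositol trisphosphate. Its intensity was 30.5, 22.3, 75.8 and 82.4 in young, 106, 104, 105 and 70.7 in ad libitum, and 80.5, 73.6, 74.1 and 77.6 in restricted kidneys. Young arrays 1 and 2 were not above background, while arrays 3 and 4 lay near the restricted arrays. Car8 was higher in ad libitum than in young kidneys by 1.07 over arrays (SE 0.67, limma adjusted p = 0.0316), which the fit over 5 samples did not call (0.451). The groups overlapped through ad libitum array 4, and the call was lost without ad libitum array 1, 2 or 3 or young array 1 or 2. The change from young to restricted kidneys, 0.75, did not pass (limma adjusted p = 0.115).

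Car11, abundant in brain, encodes the other of these proteins. Its intensity was 2121, 1959.9, 1640.0 and 1794 in young, 1527, 1637, 1469 and 1495 in ad libitum, and 1808, 1975, 1821 and 1922 in restricted kidneys. The ad libitum arrays were below all others, and young and restricted arrays overlapped. Car11 was lower by 0.29 in ad libitum than in young kidneys (log2 change -0.29, SE 0.22, limma adjusted p = 0.0153 over arrays and 0.514 over samples) and higher by 0.30 in restricted than in ad libitum kidneys (SE 0.22, limma adjusted p = 0.0388 over arrays and 1 over samples). The call between the diets was lost without any 1 of the 8 aged arrays and with each array scaled by its median (0.18, limma adjusted p = 0.556), which also moved the change from young to ad libitum to -0.70 (limma adjusted p = 0.0035). These opposite changes share the ad libitum arrays, which by the image file names were also the ones scanned apart.

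Whether restricted and young kidneys differed in Car11 depended on the scaling. Its log2 change was 0.01 after quantile normalisation (95% interval over 5 samples from -0.46 to 0.48) but -0.52 with each array scaled by its median (limma adjusted p = 0.0156). That scaling also moved the median change of all probes from young to restricted from -0.02 to -0.26. Relative to the median of all probes, Car11 was thus at 0.03 and -0.27. Car5b showed the same dependence, at -0.16 after quantile normalisation and -0.58 after median scaling (limma adjusted p = 0.0018), or -0.14 and -0.33 relative to the median. Relative to it, Car4 was at -0.48 and -0.82, Car14 at -0.45 and -0.34, Car12 at -0.48 and -0.25, Car9 at 0.83 and 1.06, and Car3 at 4.09 and 4.18, so these kept their direction under both.

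The 2 young samples differed from each other by more than the young and ad libitum means did in Car2, Car5b, Car8, Car12 and Car14. For Car12 the second of these samples is young array 3 alone, because array 4 was left out. Young arrays 1 and 2 were not above background for Car8, and against them it was at least 2.56-fold higher in ad libitum and at least 2.05-fold higher in restricted kidneys. Against young arrays 3 and 4 its log2 changes were 0.27 and -0.05. Car2 was higher by 0.76 and 0.38 against the first sample, and was at 0.19 and -0.19 against the second. Both genes thus differed less from young arrays 3 and 4 than from arrays 1 and 2. The call of Car8 from young to ad libitum was lost without young arrays 1 and 2 (0.27, limma adjusted p = 0.181), as was that of Car2 (0.19, limma adjusted p = 0.079).

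Car14 and Car12 showed the reverse: relative to young arrays 1 and 2 the ad libitum kidneys were at -0.08 for each gene, and relative to arrays 3 and 4 at -0.44 and -0.59. Restricted kidneys were below both young samples in Car14 (-0.29 and -0.65) and in Car12 (-0.34 and -0.84). The values of Car12 against arrays 3 and 4, -0.59 and -0.84, rest on array 3 alone. Car3, also not above background on young arrays 1 and 2, was at least 9.0-fold and 10.5-fold higher in ad libitum and restricted kidneys than there. Against young arrays 3 and 4 it was at least 9.69-fold and 11.3-fold higher, since array 3 was not above background either. Car9 differed by 0.28 and 0.56, and by 0.67 and 0.95. Car5b changed sign between the young samples in ad libitum kidneys, from 0.32 to -0.22, and in restricted kidneys, from 0.11 to -0.43. Young arrays 1 and 2 were also those with the lowest shares of probes above background (64.2% and 65.5%, against 68.7% and 69.9%), and the part of this in the differences was not tested.

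**Figure D3:**
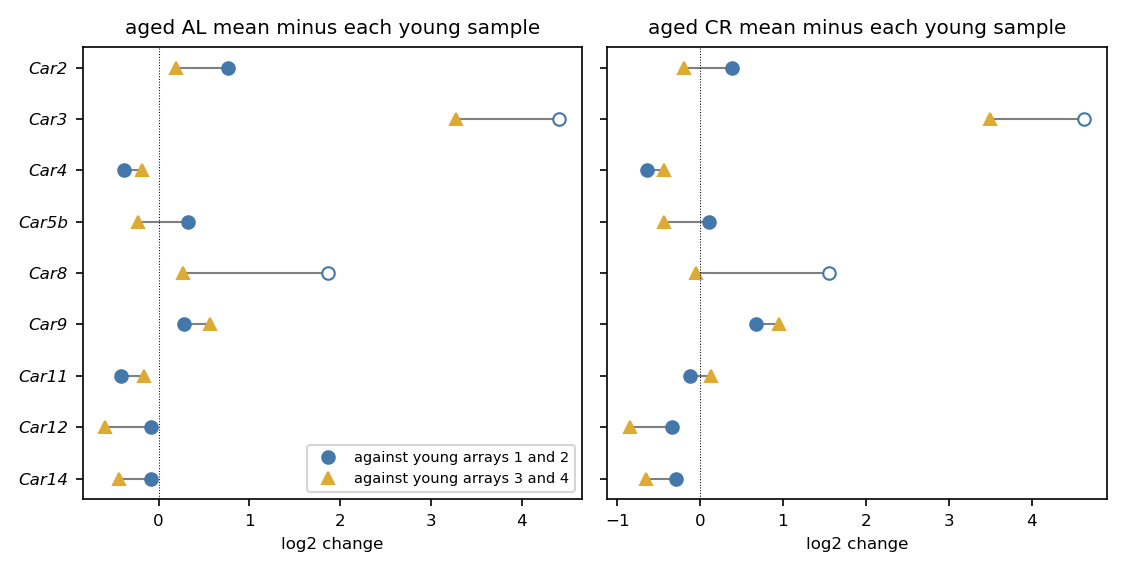
Log2 change of the aged ad libitum mean (left) and the aged restricted mean (right) of each gene against young arrays 1 and 2 (circles) and against young arrays 3 and 4 (triangles), joined by a line; open circles mark Car3 and Car8, which were not above background on young arrays 1 and 2, so that their exact place has no meaning beyond a bound. In restricted kidneys Car2, Car5b, Car8 and Car11 change sign between the young samples, while Car3 and Car9 are to the right and Car4, Car12 and Car14 to the left of 0 against both. Because flagged values were left out, the triangle of Car12 rests on young array 3 alone and the circle of Car4 on young array 2 alone. The triangle of Car3 includes young array 3, where Car3 was not above background.

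Of the other family members, Car6, whose protein is secreted into saliva, was lower in each step. Its intensity was 860.1, 814, 865 and 852 in young, 713, 715, 672 and 683 in ad libitum, and 588, 583, 594 and 562 in restricted kidneys, without overlap between the groups. The log2 changes were -0.28 from young to ad libitum, -0.26 between the diets and -0.54 from young to restricted, with limma adjusted p of 0.00172, 0.011 and 2.22e-05 over arrays and 0.475, 1 and 0.148 over samples. With each array scaled by its median the call between the diets was lost (-0.29, limma adjusted p = 0.0606). Car1, an enzyme of red blood cells, had no call after quantile normalisation, with intensities of 579 to 656, 509 to 598 and 521 to 647 in the same order of groups. With each array scaled by its median it was lower than in young kidneys by 0.41 in ad libitum (log2 change -0.41, limma adjusted p = 0.0082) and by 0.38 in restricted kidneys (-0.38, 0.0109). Car5a, the mitochondrial enzyme of liver, was above background on 1 of 12 arrays and was not tested.

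The carbon dioxide and bicarbonate handled by these enzymes are moved by transporters and pumps, of which 27 genes were read, 24 had a probe and 20 were tested. From young to ad libitum kidneys 0 of the 20 were higher and 9 lower, at a median log2 change of -0.11 against -0.05 for all probes. That is 45% called, near the 48.1% of all probes. Slc9a3, the sodium-proton exchanger of the proximal brush border, fell by 0.73, Slc4a1, the chloride-bicarbonate exchanger of red cells and acid-secreting intercalated cells, by 0.62, and the exchanger Slc9a2 by 0.52. From young to restricted kidneys 2 were higher and 10 lower (60% called, against 44.3% of all probes), at a median of -0.26 against -0.02, with Slc9a3 at -0.77, Slc4a1 at -0.65 and Slc9a2 at -0.59. Between the diets 2 were lower (10% called, against 13.4% of all probes), the basolateral sodium-bicarbonate cotransporter Slc4a4 (-0.49) and the proton pump subunit Atp6v1g3 (-0.36). In that list 8 genes are also intercalated cell markers.

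The 18 tested of 20 listed HIF targets, chosen without Car9 and Car12, moved both ways. From young to ad libitum kidneys 5 were higher and 4 lower (50% called, against 48.1% of all probes), at a median of 0.08 against -0.05. P4ha1, a subunit of prolyl 4-hydroxylase, was higher by 1.33 (limma adjusted p = 0.0364 over arrays). The glycolytic Pgk1 was higher by 0.96, just inside the threshold (limma adjusted p = 0.0494). Higd1a, a mitochondrial protein, fell by 0.93 (limma adjusted p = 9.8e-06). From young to restricted kidneys 3 were higher and 5 lower (44.4% called, against 44.3% of all probes), at a median of -0.03 against -0.02, with P4ha1 at 1.37, Ankrd37 at -1.29 and Higd1a at -0.73. Between the diets 1 was higher, the hexokinase Hk2 (0.64), and 3 were lower (22.2% called, against 13.4%), among them Ankrd37 (-0.74) and the oxygen sensor Egln1 (-0.47). Over the 12 arrays Car9, at 0.39, and Hk2 were thus both called higher in restricted kidneys, and Car12, at -0.26, did not pass. Calls in this and all other gene lists come from limma over the 12 arrays, which measures only the spread between arrays.

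**Figure D4:**
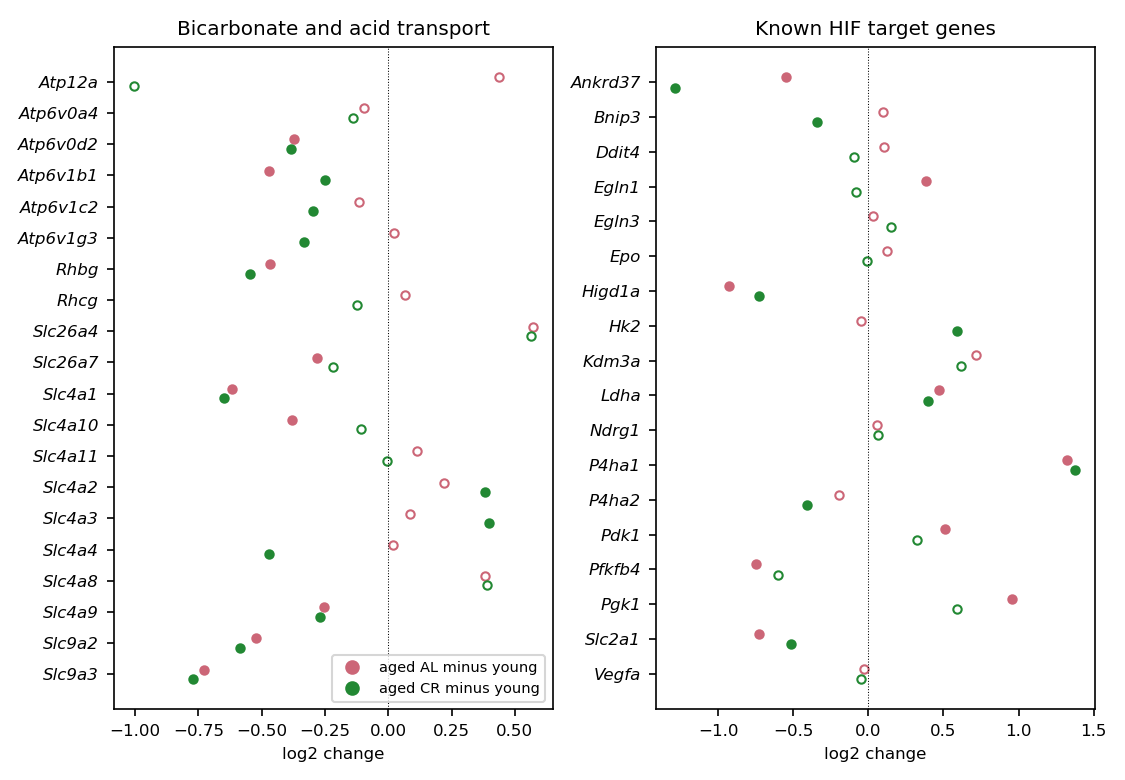
Log2 change of each tested gene of bicarbonate and acid transport (left) and of the HIF targets (right) in aged ad libitum (red) and aged restricted (green) kidneys against young kidneys; filled points had a limma adjusted p under 0.05 over 12 arrays. On the left 9 and 10 genes were lower and 0 and 2 higher, and on the right calls lie on both sides of 0.

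Markers of the cells that hold these enzymes were read beside them, and the counts for each marker list have the same background of 48.1%, 13.4% and 44.3% of all probes in the 3 comparisons. Each of the 14 proximal tubule markers was above background on at least 1 array of each group. From young to ad libitum 2 were higher, Cubn at 1.72 and Aqp1 at 1.49, and 3 were lower, with Ggt1 at -0.88. From young to restricted 1 was higher, Cubn at 0.997, and 5 were lower, with Slc5a12 at -0.98. Between the diets 0 were higher and 3 lower, with Aqp1 at -1.62. The summed intensity of the 14 markers ranged from 107696 to 128854 on young, 119730 to 122090 on ad libitum and 112114 to 120158 on restricted arrays. Of 11 tested intercalated cell markers 5 were lower in ad libitum and 6 in restricted kidneys, with 0 higher in either (45.5% and 54.5% called, against 48.1% and 44.3% of all probes). Their summed intensity was 34067 to 35502 on young, 30417 to 31793 on ad libitum and 28575 to 30992 on restricted arrays. The part of these cells in the lower Car4, Car12 and Car14 was not tested.

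Car3 is abundant outside the kidney in fat and muscle, whose markers are given beside it. Of 10 tested adipocyte markers 5 were higher and 3 lower from young to ad libitum, with Cfd at 3.18 and Fabp4 at 1.62 against Thrsp at -1.72, and Adipoq was at -0.01 and Plin1 not above background on enough arrays to be tested. From ad libitum to restricted 4 of the 10 fell, Fabp4 by 0.97, and 0 rose, while Car3 was at 0.22. Their summed intensity was 6551 to 9394 on young, 6087 to 6306 on ad libitum and 4468 to 4863 on restricted arrays, and the part of fat in the level of Car3 was not tested.

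Of 10 tested skeletal muscle markers 5 were higher and 2 lower from young to ad libitum, with Myh2 at 1.76 and Mylpf at -1.40. The defining genes Myh4, Mb and Actn3 were not tested because too few arrays were above background, and Ckm was at -0.07. The summed intensity of the tested markers was 2062 to 2554, 1895 to 2099.9 and 1925 to 2273 on young, ad libitum and restricted arrays. Leukocyte markers had a median log2 change of 1.55 from young to ad libitum and 1.24 from young to restricted kidneys, with 9 of 10 higher in each, 1 lower in restricted kidneys, and a summed intensity of 7288 to 7996, 18909 to 19892 and 18023 to 19115. The part of leukocytes in the rise of Car3 was not tested.

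Red blood cell markers were sparse, with 3 of 8 tested: Alas2 was higher by 1.12 in ad libitum and 1.05 in restricted kidneys, Ahsp was higher by 0.89 in restricted kidneys, and Slc4a1 fell by 0.62 and 0.65 in the aged groups. Of 10 markers of thick limb and distal convoluted tubule 0 were higher and 4 lower in ad libitum than in young kidneys, and 4 were higher and 0 lower in restricted than in ad libitum kidneys, with Umod at 0.51 and Slc12a3 at 0.51. From young to restricted kidneys 2 of them were higher and 3 lower. Of 8 principal cell markers 2 were lower in ad libitum and 2 in restricted than in young kidneys, with 0 higher in either. Their median log2 change from young to restricted was 0.21, against -0.02 for all probes. Between the diets 2 of them were higher in restricted kidneys and 0 lower. Of 9 endothelial markers 1 was higher and 1 lower from young to ad libitum and 1 lower from young to restricted. Between the diets 0 of the endothelial markers were higher and 2 lower in restricted kidneys. The 2 tested urothelial markers had no call.

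The genes whose pattern over the 12 arrays was most like that of Car3 were Tnc, which encodes the matrix protein tenascin C, with a Pearson r of 0.996 on the log2 scale, Cd44, the hyaluronan receptor, at 0.995, and Ifitm3, an interferon-induced membrane protein, at 0.994. They were sought among 12467 named probes. Tnc changed by 2.96 and 2.91 from young to ad libitum and restricted kidneys, and Cd44 by 2.94 and 2.88. Most like Car6 were F2, which encodes prothrombin, at 0.986, the mitochondrial assembly factor Bcs1l at 0.978 and the chaperone Canx at 0.978. For Car9, added after its values were seen, they were Ly6al at 0.968, Ppm1n at 0.958 and Irf7, a regulator of interferon genes, at 0.956. These arrays share their groups, samples and scans, so the correlations describe likeness of pattern and nothing more.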

How the data were processed

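Whole-kidney RNA was measured on 12 CodeLink arrays, 4 in each of 3 groups taken from the labels. The deposited array reports hold intensity values per spot with local background subtracted, written per the file headers by CodeLink Expression Analysis 4.1.0.29054, and quality flags. The deposited value table holds a ratio, in which the authors' median-scaled intensity is divided by a number fixed for each probe. It was used only as an alternative, and how the constant was chosen is not stated in the labels or headers.

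Values flagged as contaminated, irregular or masked were set to missing. The 33849 gene probes were quantile normalised, floored at 7.69 (the median of the negative controls, of which there are 256 spots per array) and log2 transformed. Probes above background on at least 4 of 12 arrays, with at least 2 values per group, were tested: 25398, or 75.0%, the 9 carbonic anhydrases included. Symbols came from the platform annotation of the probes. Where it gave none, they came from the RefSeq accession (183 probes) or the description (30 probes). limma 3.58.1 in R 4.3.3 fitted a mean per group over all arrays, with Benjamini-Hochberg adjustment over all probes and a threshold of 0.05. The second fit averaged arrays of a group if the SD of their log2 differences stayed within a limit. That limit was the upper end of the 95% interval of the SD between repeat control spots in the group. The script was tested on simulated data. The number of arrays limits the precision.

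Every probe of the family is named. Genes of a list are named only if among the 3 largest changes past the threshold, or where a marker defines its cell type, which was added after the values were seen. A list gene is represented by its tested probe with the highest mean. In the transport list 1 gene is not reported here. The members and lists were chosen with earlier results of these data known. Replicate numbers did not pair arrays: same-numbered arrays of different groups correlated between -0.18 and 0.16.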

Additional observations from a re-analysis of the deposited data

Results flagged for a closer look

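Of 33 sets of 4 arrays checked over the carbonic anhydrase probes, 2 held an array far from the other 3, about what chance gives at 1 in 20. Car8 on ad libitum array 4 was at 6.14 on the log2 scale, while the other ad libitum arrays lay between 6.70 and 6.73. Car1 on restricted array 4 was at 9.34, with the others between 9.02 and 9.07. Without ad libitum array 4 the change of Car8 from young to ad libitum kidneys was 1.22 (limma adjusted p = 0.0322 over arrays), beside 1.07 with it.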

How the results depend on the processing

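None of the 13 called changes of the 9 genes reversed its sign in 341 recomputed values, of which 266 kept the call and 75 lost it. Young to ad libitum calls numbered 6, but 0 with joined arrays counted as 1 sample, 1 (Car3) with slide series as a fixed term and 3 without young arrays 1 and 2. The count between the diets was 2, but 0 with array median scaling, with the deposited value table, with no filter on dim probes, with joined arrays, with the replicate block, with slide series as a fixed term, without restricted arrays 1 and 3, and without restricted arrays 2 and 4, and it was 5 without young arrays 1 and 2 and 6 without young arrays 3 and 4. Young to restricted calls numbered 5, but 2 when only probes above background on all 12 arrays were tested, 1 with joined arrays and 2 within the second slide series, where Car12 had too few values. Leaving out 1 array gave 4 to 6, 0 to 3 and 5 to 6 calls in the 3 comparisons. The stricter filter left Car3, Car4, Car8 and Car12 untested. Car3 and Car8 were not above background on some young arrays. Car4 and Car12 had values left out for a quality flag, which this filter does not count as above background. With joined arrays the fit had 5 samples in place of 12 arrays. The cause of the changed count there, and under the other settings, was not tested. The replicate block, whose numbers do not pair the arrays, took from the calls of the family Car14 from young to ad libitum and both calls between the diets. Array median scaling moved calls among higher probes from young to restricted from 5015 of 11256 to 3382 of 14043, from young to ad libitum from 5318 of 12204 to 3896 of 13749, and between the diets from 1878 of 3397 to 1019 of 2357. The settings with the slide series as a fixed term, within each series and without a joined sample were added after the data were seen. Signal near background limits Car3 and Car8 in young kidneys.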
